A study of Mus musculus with 6 samples.

Results

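The genes described here code for the sensors of viral and misplaced nucleic acid and for the proteins that relay their signal. They are the 10 rows of the count table whose symbols are *Rigi*, *Ifih1*, *Dhx58*, *Mavs*, *Cgas*, *Sting1*, *Tbk1*, *Ikbke*, *Irf3* and *Zbp1*, out of 22116 rows with a gene name, and were listed by name. RNA was measured in 4T1 cells, a mouse mammary carcinoma line that models triple-negative breast cancer. The cells were given DMSO, the vehicle, or 10 µM P3FI-90, an inhibitor of the histone demethylase KDM3B, and were harvested after 24 h. Each group holds 3 libraries of the same line, and the labels do not say whether these came from separate cultures, so p-values measure only the spread between these libraries.

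Cells detect foreign nucleic acid in the cytosol through separate receptors that share their output. RIG-I (*Rigi*) and MDA5 (*Ifih1*) bind double-stranded RNA and signal through the mitochondrial adaptor MAVS, whereas cGAS binds double-stranded DNA and makes cyclic GMP-AMP, which activates STING at the endoplasmic reticulum. Both adaptors recruit the kinases TBK1 and IKKε (*Ikbke*), which phosphorylate the transcription factor IRF3, and IRF3 then switches on *Ifnb1* and other genes. *Rigi*, *Ifih1*, *Dhx58* and *Zbp1* are themselves interferon-stimulated genes, while *Mavs*, *Tbk1* and *Irf3* are known as constitutively expressed genes.

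Counts on named genes summed to between 31327094 and 37395732 per library, and all 10 genes were among the 12288 that passed edgeR's filter on low counts. To obtain normalized counts, each library was brought to the average effective size by the TMM method. The inhibitor acts on the KDM3B protein, so the *Kdm3b* transcript is no check of the labels, and its log2 fold change was 0.13 (SE 0.043, adjusted p = 0.0169 in the edgeR quasi-likelihood test), which turned to −0.054 once a dependence on length and base composition of transcripts was taken out. All 6 epithelial markers examined were present in every library, and their summed normalized counts were 149858 to 158390 in DMSO and 62410 to 65543 after P3FI-90. Of 11 markers of leukocytes, fibroblasts and endothelium, 7 had at most 10 counts over all libraries, and *Adgre1* had 0 in every library. The summed counts of these 11 were 1379 to 1439 in DMSO and 1060 to 1182 after P3FI-90, most of them from *Pdgfra*. Of the 4 that were tested, *Csf1r* (mean 41.5 and 121 normalized counts) and *Pecam1* (4.42 and 20.1) were higher, *Pdgfra* (1355 and 958) was lower and *Ptprc* was neither. The part of these markers in the results was not tested, and in bulk RNA a change in the share of cells and a change in RNA per cell cannot be told apart.

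After P3FI-90 treatment, the sensing genes moved in both directions. *Zbp1*, *Rigi*, *Ifih1* and *Tbk1* were higher, *Irf3*, *Ikbke*, *Mavs*, *Sting1* and *Cgas* were lower, and *Dhx58* did not pass the test. The edgeR quasi-likelihood test with a threshold of 0.05 on the adjusted p thus called 4 higher, 5 lower and 1 in neither direction. Over all tested genes, 39.9% were called higher and 39.4% lower, so the share of the sensing genes called in either direction is near the 79.3% called in the whole table. Their median log2 fold change was −0.20, against 0.013 over all tested genes. By more than 1 on the log2 scale, 2 of the 10 were higher and 2 lower, where 12.7% and 10.6% of tested genes were. The 3 libraries of each group lay wholly apart for 8 genes, 4 higher and 4 lower, and the same held for 81.2% of all tested genes, 41% higher and 40.2% lower. The call of *Cgas* was lost in most other fits, and under scaling by total counts its sign turned.

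**Figure D1:**
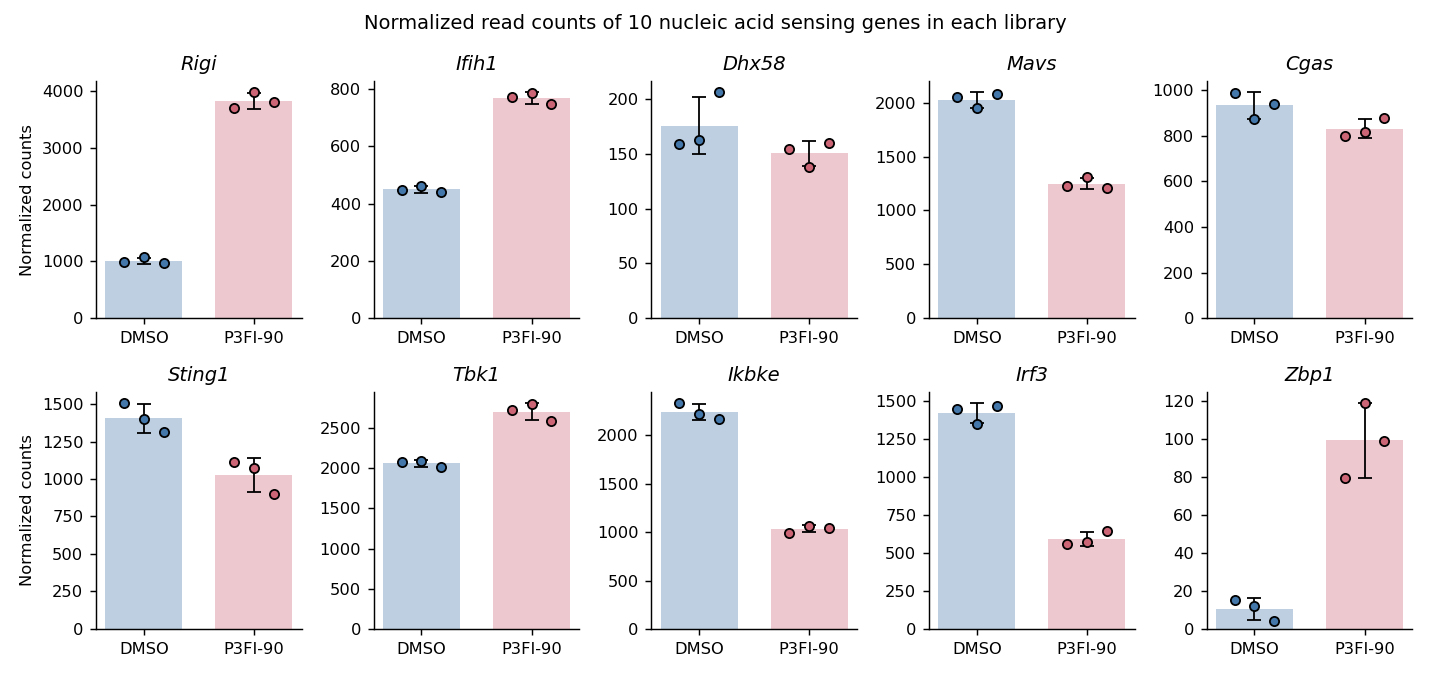
Normalized read counts (y axis, from 0) of each sensing gene in the DMSO and P3FI-90 libraries. Points are libraries, bars the mean and whiskers the SD of 3 libraries. The groups lie apart for 8 genes and overlap for *Dhx58* and *Cgas*.

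Of the RNA receptors, *Rigi* (ENSMUSG00000040296) carried the larger change. Its product recognises short double-stranded RNA with a 5′ triphosphate. It had 981, 1075 and 965 normalized counts in the DMSO libraries and 3690, 3973 and 3805 after P3FI-90. The lowest treated library was more than 3 times as high as the highest DMSO library. In the edgeR test the log2 fold change was 1.93 (SE 0.057, adjusted p = 1.03e-12), a 3.80-fold rise, and 6.43% of tested genes changed by more in either direction. *Ifih1* (ENSMUSG00000026896), whose product MDA5 prefers long double-stranded RNA, had 448, 461 and 439 normalized counts in DMSO and 770.1, 787 and 746 after P3FI-90. It rose 1.71-fold, or by 0.77 on the log2 scale (SE 0.078, edgeR adjusted p = 4.70e-07). With the trend of transcript length and GC content removed, this became 0.53 (adjusted p = 2.37e-05 from the edgeR test).

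*Dhx58* (ENSMUSG00000017830) codes for LGP2, the third helicase of the family, which lacks the signaling domains of the other members and modulates them. It had 159, 163 and 206 normalized counts in DMSO and 154, 138 and 160 after P3FI-90. The groups overlapped, and its log2 fold change was −0.23 with a 95% interval of −0.59 to 0.14 (adjusted p = 0.233 from the edgeR test), which excludes a rise of the size seen in *Rigi* or *Ifih1*. An exon of the gene overlaps 141 bases of an antisense transcript, *Dhx58os*, and strand-specific counting is not stated. Among the 3 receptors, the share of *Rigi* in their summed counts per kilobase was 62.6% ± 2.34 in DMSO and 82.9% ± 0.662 after P3FI-90 (SD, n = 3). The share of *Ifih1* was 19.8% ± 0.571 and 11.8% ± 0.331, and that of *Dhx58* 17.6% ± 2.64 and 5.26% ± 0.526.

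The ratio of *Rigi* to *Ifih1* counts per kilobase does not depend on how libraries are scaled, though its level depends on the transcript lengths used. It was 3.09, 3.29 and 3.11 in DMSO and 6.76, 7.13 and 7.20 after P3FI-90. The groups were apart, with an exact two-sided permutation p = 0.1, the smallest that 3 libraries against 3 allow. Of such ratios 7 were computed, each with this p, which is also 0.1 after Benjamini-Hochberg adjustment.

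Promoter sequences are shown for the 2 receptor genes that rose together, and for *Irf3*, which fell, as a contrast. They are written 5′ to 3′ along the gene's strand and come from RefSeq on GRCm38.p6. Each holds 250 bases before and 50 after the annotated start. Windows were used for 7 of the 10 genes, *Rigi* under its older symbol *Ddx58*. None was used for *Dhx58*, *Sting1* and *Zbp1*. Only *Rigi* was sought under an older symbol, and a whole chromosome was left out of the search. The source may thus hold windows of genes that were not used here. Capitals mark the core of the interferon-stimulated response element, the letters GAAA, any 2 bases and GAAA on either strand, the motif bound by interferon regulatory factors and by the ISGF3 complex.
Rigi, chr4:40239776-40240075, minus strand: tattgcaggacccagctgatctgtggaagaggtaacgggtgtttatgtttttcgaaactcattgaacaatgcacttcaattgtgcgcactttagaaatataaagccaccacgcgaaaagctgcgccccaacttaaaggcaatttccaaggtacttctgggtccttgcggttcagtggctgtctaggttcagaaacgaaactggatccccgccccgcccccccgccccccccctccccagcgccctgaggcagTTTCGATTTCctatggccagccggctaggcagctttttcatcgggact
Ifih1, chr2:62646206-62646505, minus strand: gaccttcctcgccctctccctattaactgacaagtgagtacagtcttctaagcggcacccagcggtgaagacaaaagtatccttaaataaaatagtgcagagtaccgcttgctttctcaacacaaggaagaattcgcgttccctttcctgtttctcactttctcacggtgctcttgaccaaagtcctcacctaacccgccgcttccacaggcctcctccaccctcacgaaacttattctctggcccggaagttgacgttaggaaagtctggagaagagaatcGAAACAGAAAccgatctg
Irf3, chr7:44997398-44997697, plus strand: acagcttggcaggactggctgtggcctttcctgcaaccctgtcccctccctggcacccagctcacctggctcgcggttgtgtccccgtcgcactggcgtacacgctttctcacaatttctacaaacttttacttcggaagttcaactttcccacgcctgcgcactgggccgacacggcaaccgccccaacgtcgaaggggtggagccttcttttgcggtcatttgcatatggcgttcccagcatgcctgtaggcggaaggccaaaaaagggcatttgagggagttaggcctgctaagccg

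The core was found in 2 of the 7 windows, those of *Rigi* and *Ifih1*, and in 3.44% of all 32851 windows in the table. In *Rigi* the match began at base 3 after the start and lay on the opposite strand to the gene, and in *Ifih1* at base 33 on the gene's own strand. The windows of *Mavs*, *Cgas*, *Tbk1*, *Ikbke* and *Irf3* did not hold these letters, although *Tbk1* also rose. That of *Ifnb1*, a gene that IRF3 switches on, did not hold them either, so a window without a match can still have a site of these factors. The core of the gamma-activated site, TTCNNNGAA, was in none of the 7 and in 8.3% of all windows. Of the 357 tested genes with the first core in a window, 46.2% were called higher and 31.1% lower, against 40.0% and 39.7% of the 9236 without it. A match describes the letters of a window and is not evidence of binding.

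*Mavs* (ENSMUSG00000037523), the adaptor that both RNA receptors signal through, moved against them. It had 2049, 1946 and 2081 normalized counts in DMSO and 1228, 1313 and 1209 after P3FI-90. Every treated library was below every DMSO library. In the edgeR test the log2 fold change was −0.70 (SE 0.054, adjusted p = 2.49e-08), which is 1.62-fold lower. The ratio of *Rigi* to *Mavs* counts per kilobase was 0.393 ± 0.038 in DMSO and 2.41 ± 0.060 after P3FI-90 (SD, n = 3; exact permutation p = 0.1), a 6.14-fold difference of the mean ratios.

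In the DNA branch, both genes had lower means after P3FI-90. *Cgas* (ENSMUSG00000032344), the cytosolic DNA sensor, had 988, 873 and 938 normalized counts in DMSO and 799, 815 and 880 after P3FI-90, so that the groups overlapped. Its log2 fold change was −0.17 with a 95% interval of −0.32 to −0.011 (adjusted p = 0.0475 from the edgeR test). This call was lost in DESeq2 (adjusted p = 0.0848) and without each of 4 of the 6 libraries, and under total counts the value was 0.046 (adjusted p = 0.566). The call of *Cgas* therefore depended on the scaling, the filter, the tool and single libraries. An exon of *Cgas* overlaps 201 bases of *Gm8093* on the opposite strand.

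*Sting1* (ENSMUSG00000024349) codes for the adaptor that cyclic GMP-AMP activates, and the activation of its protein is a question of the study. It had 1507, 1398 and 1310 normalized counts in DMSO and 1114, 1072 and 897 after P3FI-90. All treated libraries were below all DMSO libraries, the third treated library by the most. In the edgeR test the log2 fold change was −0.45 (SE 0.082, adjusted p = 1.60e-04), or 1.37-fold lower, and it was −0.24 under total counts (adjusted p = 0.0158). Counts give the transcript only, and say nothing of STING protein or its phosphorylation.

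The 2 kinases that act on IRF3 changed in opposite directions. *Tbk1* (ENSMUSG00000020115), which is active in most cell types, had 2084, 2087 and 2016 normalized counts in DMSO and 2727, 2801 and 2589 after P3FI-90. In the edgeR test its log2 fold change was 0.39 (SE 0.050, adjusted p = 5.09e-06), a 1.31-fold rise. *Ikbke* (ENSMUSG00000042349), whose product IKKε is closely related to TBK1, had 2335, 2221 and 2168 normalized counts in DMSO and 993, 1063 and 1045 after P3FI-90. It was 2.17-fold lower, a difference of −1.12 on the log2 scale (SE 0.053, edgeR adjusted p = 1.39e-10). Exons of *Ikbke* overlap 224 bases of antisense gene models.

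In counts per kilobase, *Tbk1* made up 64.1% ± 0.629 of the summed level of both kinases in DMSO and 83.5% ± 0.718 after P3FI-90 (SD, n = 3). The ratio of *Tbk1* to *Ikbke* was 1.73, 1.82 and 1.80 in DMSO and 5.32, 5.10 and 4.80 after P3FI-90, 2.85-fold higher on average (exact permutation p = 0.1). This ratio does not depend on the scaling of the libraries either. Its level, unlike its fold difference, depends on the transcript lengths used, 3024 bases for *Tbk1* and 5856 for *Ikbke*. Before division by length, *Ikbke* had the higher mean in DMSO (2241 against 2062 normalized counts).

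*Irf3* (ENSMUSG00000003184), the transcription factor on which both branches converge, was lower by a similar amount to *Ikbke*. It had 1446, 1344 and 1467 normalized counts in DMSO and 559, 571 and 641 after P3FI-90. No treated library reached 0.5 times the level of any DMSO library. In the edgeR test the log2 fold change was −1.27 (SE 0.072, adjusted p = 9.31e-10), which is 2.41-fold lower, and it was −1.05 both under total counts and with the length and GC trend removed. The 95% interval of −1.42 to −1.11 overlapped that of *Ikbke* (−1.232 to −1.001), and with that trend removed *Ikbke* was the lower of the pair (−1.32). Its exons overlap 88 bases of *Bcl2l12* on the opposite strand, a gene with 224 ± 32.8 normalized counts in DMSO and 187 ± 21.1 after P3FI-90 (SD, n = 3) that did not pass the test (log2 fold change −0.26, adjusted p = 0.142).

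*Zbp1* (ENSMUSG00000027514), a sensor of Z-form nucleic acid that can start necroptosis, had the largest fold change from the lowest level. It had 15, 10 and 4 raw counts in the DMSO libraries and 85, 132 and 101 after P3FI-90, or 10.4 ± 5.72 and 99.1 ± 19.6 normalized counts (SD, n = 3). The groups did not overlap. In the edgeR test the log2 fold change was 3.24 (SE 0.38, adjusted p = 2.53e-06), a 9.44-fold rise, and with each library left out in turn it lay between 2.84 and 3.64. On the log2(CPM + 1) scale, which understates the change of low genes, it was 1.56. The kinase gene *Ripk3*, through which ZBP1 starts necroptosis, had 0 counts in every library, while *Mlkl*, which carries out that form of death, had 3018 ± 150 normalized counts in DMSO and 2364 ± 158 after P3FI-90 (log2 fold change −0.35, adjusted p = 6.15e-05 from the edgeR test).

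**Figure D2:**
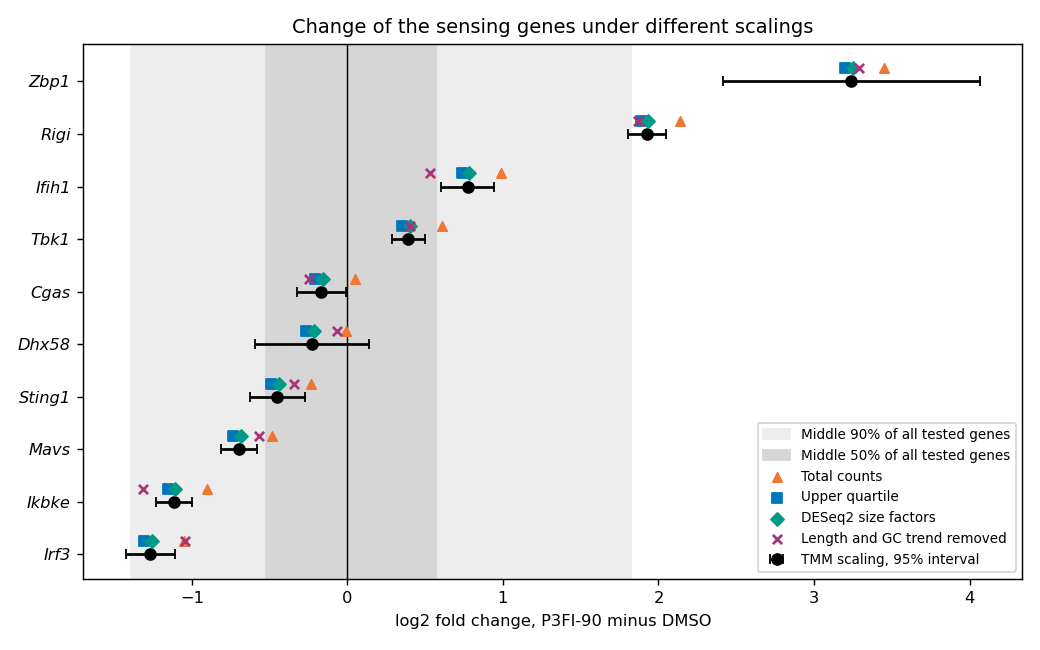
log2 fold change (x axis, P3FI-90 minus DMSO) of each sensing gene with TMM scaling (black, 95% interval) and under 3 other scalings and a length and GC correction, over the middle 50% and 90% of all tested genes (grey bands). *Zbp1* and *Rigi* lie beyond the bands and *Irf3* and *Ikbke* in the lower part of the wide band; *Cgas* changes sign under total counts.

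Set per kilobase of the longest annotated transcript, the genes changed their order. The order within a group depends on these lengths, and which transcripts the cells expressed was not tested. In DMSO, *Irf3* (699 ± 32.3 normalized counts per kilobase, SD, n = 3), *Tbk1* (682 ± 13.3), *Mavs* (663 ± 23.0) and *Sting1* (611 ± 42.8) stood at the top, with each neighbour within the spread of the next. *Ikbke* (383 ± 14.6) followed apart from them, then *Rigi* (260.0 ± 15.4) and *Cgas* (230.4 ± 14.2), whose libraries lay close but did not overlap. *Ifih1* (82.2 ± 2.06) and *Dhx58* (72.9 ± 10.9) did not differ beyond their spread, and *Zbp1* was last (3.14 ± 1.72).

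After P3FI-90, *Rigi* was first with 987 ± 36.9 normalized counts per kilobase (SD, n = 3), and *Tbk1* second with 895 ± 35.5. *Sting1* (447 ± 50.04) and *Mavs* (409 ± 18.1) lay within their spread of each other, and *Irf3* had gone from the first place to the fifth (291 ± 21.8). *Cgas* (205 ± 10.6) and *Ikbke* (177 ± 6.22) came next, above *Ifih1* (140.4 ± 3.70), *Dhx58* (62.4 ± 4.79) and *Zbp1* (29.8 ± 5.89). Among the tested genes with an annotated transcript length, *Rigi* went from percentile 41.7 of level per kilobase to 77.4, and *Irf3* from 68.4 to 43.4.

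**Figure D3:**
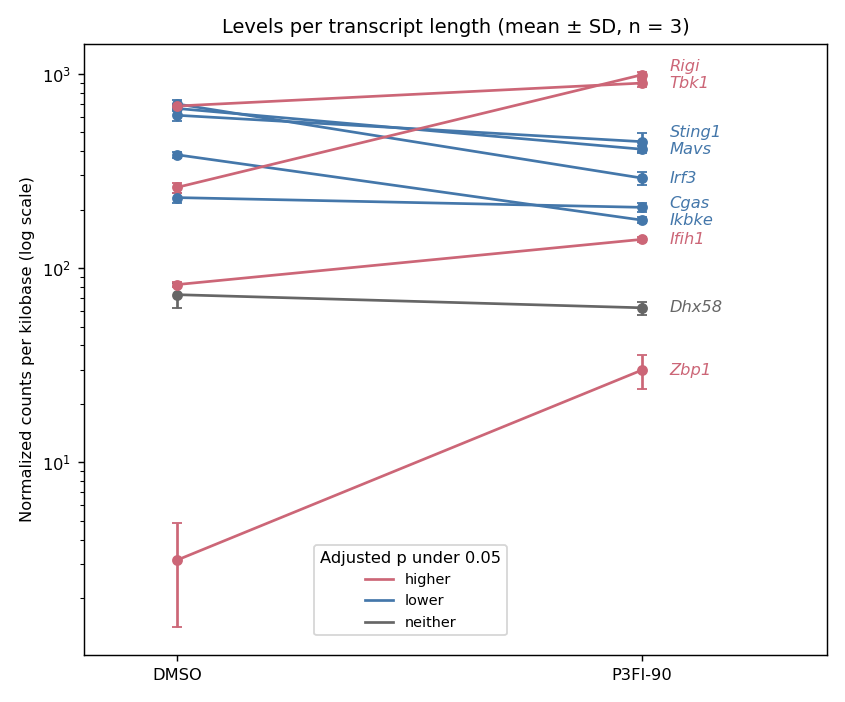
Mean normalized counts per kilobase of the longest transcript (y axis, log scale) of each sensing gene in DMSO and P3FI-90 libraries, with SD of 3 libraries as whiskers. Red lines rose, blue lines fell and the grey line did not pass at an adjusted p under 0.05 (the call of *Cgas* turns with the scaling); *Rigi* passes 5 genes to the top and *Irf3* drops from the first to the fifth place.

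Genes around these 10 were taken from lists written by hand from general knowledge. Of 18 genes that act on the RNA receptors or MAVS, 7 were higher, 9 lower and 2 neither, with a median log2 fold change of −0.16. Over all tested genes 39.9% were higher and 39.4% lower, and the higher share of this list is near the former. *Ddx60*, a helicase that promotes RIG-I signaling, rose from 51.1 ± 21.4 to 667 ± 104 normalized counts (SD, n = 3), by 3.72 on the log2 scale (SE 0.22, edgeR adjusted p = 1.28e-09). *Cyld*, a deubiquitinase that restrains RIG-I, rose from 4503 ± 66.9 to 10392 ± 202 (log2 fold change 1.21), and *Itch*, a ligase that targets MAVS for degradation, by 0.40. The phosphatase gene *Ppp1ca* (−1.03), *Prkra*, which codes for the RIG-I cofactor PACT (−0.85), and *Tomm70a*, whose product binds MAVS at the mitochondrion (−0.68), were lower. Activators and inhibitors of the branch were found among both the higher and the lower genes.

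Of 25 genes that act on cytosolic DNA, cGAS or STING, 24 were tested, and 4 were higher, 18 lower and 2 neither (median log2 fold change −0.75, against 0.013 over all tested genes), where 39.4% of all tested genes were lower. The 10 that fell by more than 1 included *Apex1*, a base excision repair endonuclease (−2.47), and *Rnaseh2c*, a subunit of ribonuclease H2 (−1.97). *Ptpn6*, which codes for the phosphatase SHP1, fell by 1.28 on the log2 scale. The study picked *Apex1* and *Ptpn6* from these libraries for being lower, so their direction is not independent evidence. *Enpp1*, which degrades cyclic GMP-AMP, went from 294 ± 38.2 to 129 ± 22.7 normalized counts (log2 fold change −1.19, SE 0.17), and *Rnf5*, a ligase that marks STING for degradation, from 1922 ± 223 to 634 ± 51.7 (−1.60, SE 0.086). These 2 genes, which both limit the branch, were chosen after their values were seen. Genes that help it were lower too, among them *G3bp1*, which aids cGAS (−0.78), and *Sec24c*, which aids the transport of STING (−0.72). They were likewise chosen after their values were seen, and the lower genes thus held both kinds. The 4 higher genes included *Stim1*, which holds STING at the endoplasmic reticulum (0.73), and the ubiquitin ligase genes *Trim56* (0.70) and *Trim32* (0.43), the last of them chosen after its values were seen.

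Most of the genes around the kinases were higher. Of 17 scaffolds, ligases and kinases that bind TBK1 or the IKK complex, 12 were higher, 1 lower and 4 neither, with a median log2 fold change of 0.61, where 39.9% of all tested genes were higher. *Optn*, a ubiquitin receptor that recruits TBK1, rose from 1011 ± 19.2 to 3386 ± 149 normalized counts (SD, n = 3), by 1.74 on the log2 scale (SE 0.053, edgeR adjusted p = 1.35e-12). The ubiquitin ligase gene *Traf6* and *Chuk*, which codes for IKKα, rose by 1.21 and 1.18 on the log2 scale. *Tradd*, an adaptor of death receptors that also joins MAVS, was the 1 lower gene (−1.07). After correction for length and GC content, the count of lower genes in this list was 3.

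Most tested genes of the endosomal route were lower. Of its 11 genes, the 4 receptor genes *Tlr7*, *Tlr8*, *Tlr9* and *Tlr13* were below the filter, and 6 of the other 7 were lower, where 39.4% of all tested genes were. Of the receptor genes below the filter, *Tlr9* had raw counts of 0, 0 and 2 in DMSO and 8, 20 and 3 after P3FI-90, so that its groups lay apart in the opposite direction, untested and at few counts. *Tlr3*, the double-stranded RNA receptor of the endosome, went from 1062 ± 50.5 to 767 ± 25.96 normalized counts (SD, n = 3), a difference of −0.47 on the log2 scale (SE 0.068, edgeR adjusted p = 1.94e-05). Its adaptor *Ticam1* (−0.72), the adaptor *Myd88* (−0.62) and the kinase gene *Irak4* (−1.12) were also lower. *Irak1* (0.12) was higher, a call lost under upper-quartile scaling (adjusted p = 0.0609) and without the first DMSO library or the first P3FI-90 library.

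Of 12 genes that edit, bind or degrade double-stranded RNA or act with ZBP1, 11 were tested, and 5 were higher, 4 lower and 2 neither, shares near the 39.9% and 39.4% of all tested genes. None changed by more than 1 on the log2 scale, where 12.7% of all tested genes were higher and 10.6% lower by that much. *Supv3l1*, the helicase of the mitochondrial RNA degradosome (0.64), the exonuclease gene *Xrn1* (0.61) and *Adar*, which edits double-stranded RNA (0.26), were higher. *Adarb1* (−0.61) and *Stau1* (−0.37) were lower. The call of *Xrn1* was lost with the length and GC trend removed (log2 fold change 0.096, adjusted p = 0.0811 from the edgeR test).

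**Figure D4:**
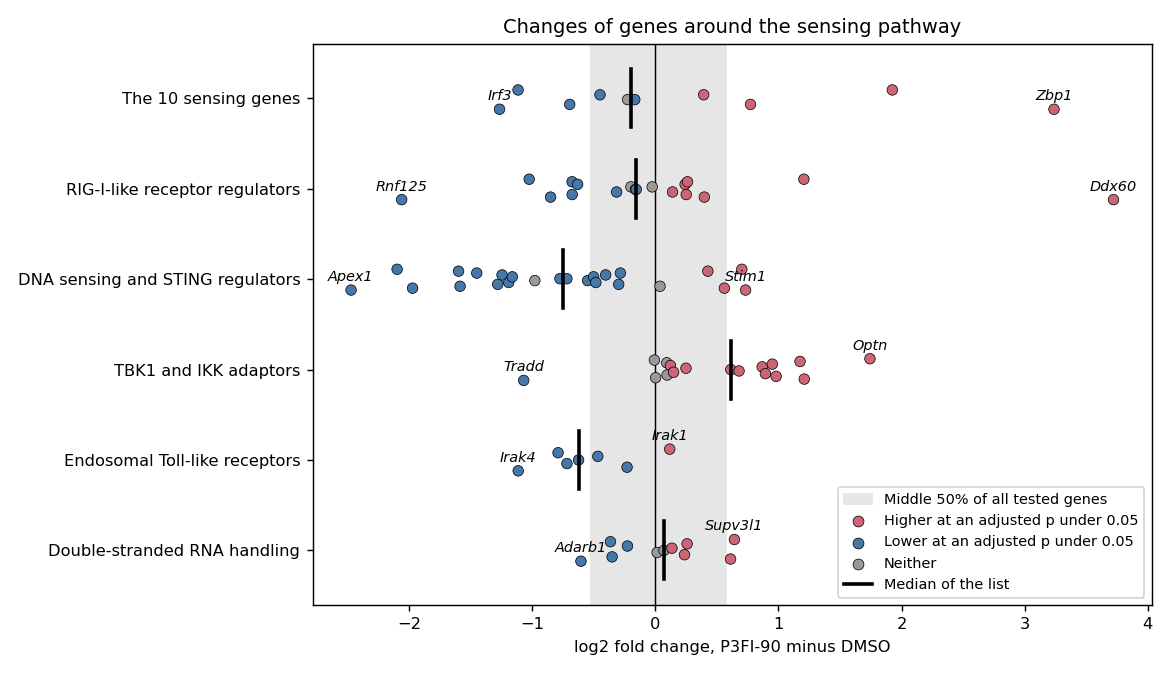
log2 fold change (x axis, P3FI-90 minus DMSO) of each tested gene in 6 lists (rows), coloured by call, with the median of each list as a black line and the middle 50% of all tested genes as a grey band. The median is 0.61 for the TBK1 and IKK adaptors and −0.75 for the DNA sensing and STING regulators; the extreme genes of each list are named.

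At the end of the pathway, none of 7 interferon genes passed the filter. No DMSO library held a count of *Ifnb1*, and the P3FI-90 libraries held 8, 15 and 6. This is 8.45-fold higher if a floor of 3 counts is set over the DMSO libraries. The treated counts were taken as exact, so the value is not a lower bound. Whether the mates of a read pair were counted separately is not stated, and if they were, this value would be lower. *Ifnl3* was at 0 in the DMSO libraries and at 0, 3 and 3 in the treated ones. *Ifna1*, *Ifna2*, *Ifna4*, *Ifna5* and *Ifnl2* had 0 counts in all 6 libraries, under that floor. Floors cover counting error only, and for *Ifnb1* that of the DMSO libraries alone.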

How the data were processed

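RNA-seq libraries of 4T1 cells, 3 given DMSO and 3 given P3FI-90, were analysed. The authors deposited 1 table of gene-level read counts, whole numbers without normalization. The submitters' processing notes name CASAVA, HISAT2, StringTie and GRCm39. Versions, annotation, counting settings and strandedness are not given in the sources used here. The 285 rows of assembled transcripts (under 0.6% of counts) were left out.

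Analyses used R 4.3.3. Genes were filtered with filterByExpr, normalized by TMM in edgeR 4.0.16 and compared by its quasi-likelihood test with Benjamini-Hochberg adjustment over 12288 genes, without a batch or pairing term. SEs were derived from the F statistic. The study used limma, which served as an alternative because the values are counts. Single ratios were compared with an exact two-sided permutation test. Transcript lengths and GC content came from GENCODE M21 (GRCm38), matched by gene identifier, and promoters from RefSeq. No 50-base window of *Rigi*, *Ifih1*, *Mavs*, *Sting1*, *Tbk1*, *Irf3* or *Zbp1* occurs in another gene, against 4.06% for *Dhx58*, 4.88% for *Cgas* and 1.50% for *Ikbke*. The test was run on simulated counts with the same dispersion for every gene. This did not cover the greater spread of genes at low counts, such as *Zbp1*.

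The members and lists were chosen with earlier results of these data known. Named genes were all members, those the study discusses on this pathway, and the 3 largest rises and falls per list among called genes with at least 100 normalized counts in a group. Some genes that this rule or the lists hold are not reported here. Alternatives were 3 scalings (DESeq2 size factors, total counts, upper quartile), 2 filters, DESeq2 1.42.0, limma 3.58.1 (voom, and log2(CPM + 1)), a replicate block and each library left out. Halved counts and a length and GC correction were added after the data were seen.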

Additional observations from a re-analysis of the deposited data

How the results depend on the processing

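Of the sensing genes, 9 kept their direction and side of the threshold in every alternative that gave a value, and *Zbp1* had none with at least 10 counts required in every library. *Cgas* (log2 fold change −0.17) was no longer called with DESeq2 size factors (−0.16), no filter (−0.17), at least 10 counts in every library (−0.15), DESeq2 (−0.16), limma on log2(CPM + 1) (−0.16), the replicate block (−0.17) and halved counts (−0.16), and was 0.046 under total counts. Without single libraries it lay between −0.22 and −0.13, and the call was lost without DMSO replicate 1 or 3 or P3FI-90 replicate 1 or 2. Scaling by total counts raised all log2 fold changes by a median of 0.21 and moved the calls over all genes from 4908 higher and 4841 lower to 6179 and 3641, with 4 of the sensing genes higher and 4 lower.

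The count of higher genes among endosomal Toll-like receptor genes (1) was 0 under upper-quartile scaling, 2 without a filter and 0 to 1 without single libraries. With the length and GC trend removed, higher regulators of the RNA receptors fell from 7 to 4, higher double-stranded RNA genes from 5 to 3, lower TBK1 and IKK adaptors rose from 1 to 3, and *Kdm3b* turned to −0.054. The causes were not tested, beyond what each alternative removes. Libraries of equal replicate number did not deviate together: deviations from the group means correlated by −0.021, 0.015 and 0.0049. This cannot show whether they were cultured or prepared together. The replicate block changed no call of a sensing gene but that of *Cgas*. Counts of 2 were more frequent than counts of 1 in all 6 libraries, and the counting of read pairs is not stated, so that a floor of 3 counts may stand for fewer fragments.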
